A study of Drosophila melanogaster with 384 samples.

Results

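The comparison set 3 inbred lines of the Drosophila Genetic Reference Panel (DGRP), numbers 177, 208 and 367, against 3 others, numbers 555, 705 and 730. The study picked these lines because a group of small nucleolar RNAs (snoRNAs) had gone up most in females of the first 3 and down most in females of the other 3 on ethanol food, relative to flies on regular food. They are called up lines and down lines here, and their libraries were taken by the line numbers that the study gave. They gave 24 libraries of 384 (6 lines of 96), 12 from the up lines and 12 from the down lines, with 2 replicates of each sex for every line.

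Flies of all 6 lines were raised on medium that held 10% ethanol. Libraries from regular medium were not analysed here, so every value is a level on ethanol and not a response to it. Pools of whole, mated young adults of 1 sex went into each library. Counts of both replicates of a line were added, the line was the unit of replication (n = 3 lines a side), and the sexes were tested apart. Levels are given in CPM, which are counts scaled to a common library size. Differences are log2 fold changes of up lines over down lines, and adjusted p-values come from edgeR's quasi-likelihood test with Benjamini-Hochberg adjustment. The standard error (SE) beside them was taken from the spread of log2 CPM among the 3 lines of each side, not from edgeR's fit. Nothing in the labels says whether replicates came from separate cultures, and the p-values measure the spread between these lines and pools only. In whole flies, fewer cells of a type and less RNA per cell cannot be told apart.

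SnoRNAs are short nuclear RNAs that guide the chemical modification of other RNAs. Those of the H/ACA class direct the conversion of uridine to pseudouridine, mostly in ribosomal RNA, and those of the C/D class direct methylation of the ribose. Their relatives in Cajal bodies (scaRNAs) modify the small nuclear RNAs (snRNAs) of the spliceosome. In flies most snoRNAs lie in introns of host genes, many of which encode ribosomal proteins, and are cut out of the spliced intron.

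The libraries held between 6500376 and 12309326 counts on gene models, with a median of 9798918.5. Side and sequencing flow cell could not be told apart in females. All 6 female libraries of the up lines ran on flow cells called A and B here, and all 6 of the down lines ran on flow cells C and D. In males, replicate 1 of every line ran on A and replicate 2 on B, in lanes 5 and 6 for the up lines and lanes 7 and 8 for the down lines. Reads that aligned to more than 1 place made up 26.1 to 34.9% of the total in females of the up lines and 14.5 to 23.8% in females of the down lines, with no overlap. In males the ranges were 24.5 to 39.8% in up lines and 17.2 to 27.5% in down lines.

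In females of the up lines, small RNAs made up nearly all of the transcripts that were higher. Of 14127 gene models tested, 63 (0.446%) passed an adjusted p of 0.05, 45 higher in the up lines (0.319%) and 18 lower (0.127%). The 45 comprised 40 snoRNAs and scaRNAs, the spliceosomal snRNA:U4:39B and snRNA:U4atac, sncRNA:CR43603, 1 transcribed region without annotation and a single protein-coding gene, CG18180. By unadjusted p under 0.05 there were 1188 (8.41%), and DESeq2 called 414 (2.93%). The 18 lower transcripts were all protein-coding, and all of them were far more abundant in males. The count depended on every line: it was 12 without line 177, 8 without line 208, 2 without line 367, 5 without line 555, 344 without line 705 and 26 without line 730. With replicate 2 left out it was 125, and with replicate 1 left out it was 1.

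In males no gene model of 18759 passed (0%). By unadjusted p under 0.05 there were 826 (4.4%), of which 436 were higher in the up lines (2.32%) and 390 lower (2.08%). DESeq2 called 57 in males (0.304%) and limma, on single libraries with the line as a random block, called 2 (0.0107%). Since replicate numbers paired the male libraries, limma was also run with a replicate block and again called 2.

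No gene model of the 13612 tested in both sexes passed in both in edgeR (0%). At unadjusted p under 0.05 in each sex, 172 did (1.26%), and 161 of them pointed the same way in females and males (1.18%), 88 higher (0.646%) and 73 lower (0.536%). The remaining 11 (0.0808%) pointed opposite ways. Levels of all 3 up lines exceeded those of all 3 down lines in both sexes for 84 gene models (0.617%), and the reverse held for 169 (1.24%), while 58 (0.426%) separated the lines in opposite directions. Within a sex, the up lines lay above the down lines for 844 gene models in females (5.97%) and 557 in males (2.97%), and below them for 1042 in females (7.38%) and 1595 in males (8.5%). DESeq2 called 21 in both sexes (0.154%), 14 higher and 7 lower, of which 11 were snoRNAs, scaRNAs or snRNAs. Limma called 2 (0.0147%), CG18180 and Cyp4p1, with the replicate block and without it.

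**Figure D1:**
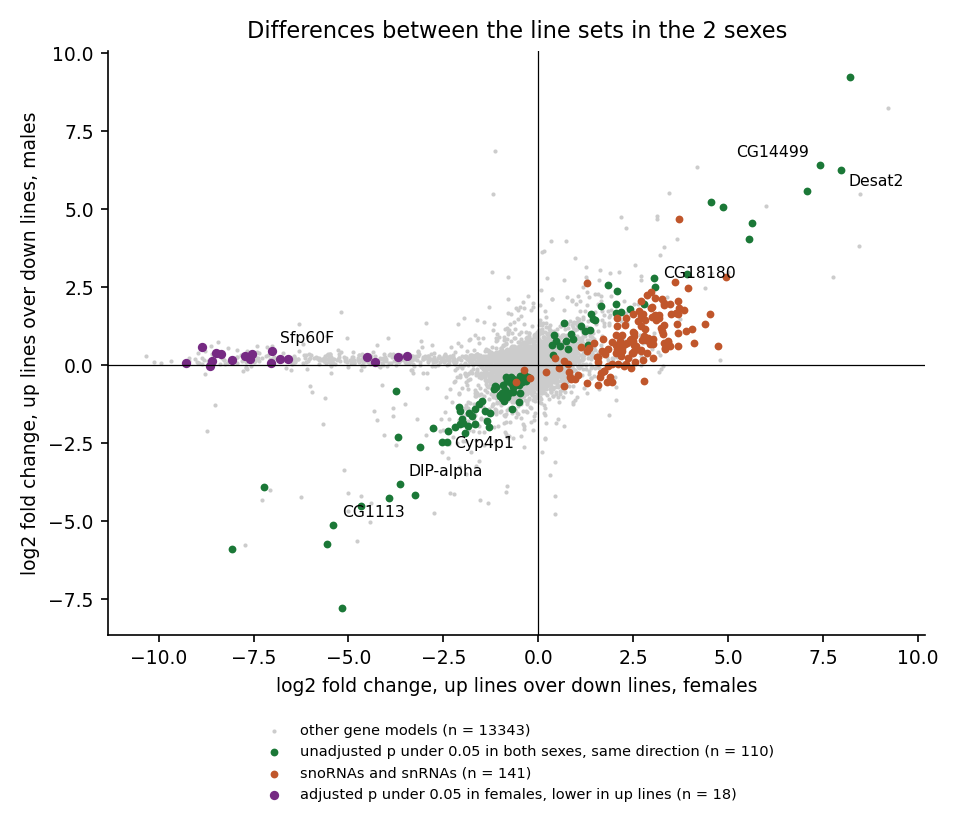
Log2 fold change of up lines over down lines in females (x axis) and males (y axis) for each gene model tested in both sexes. SnoRNA and snRNA points lie mostly right of zero, male transcripts called in females lie far left at male values near zero, and the 110 other gene models with unadjusted p under 0.05 in both sexes and the same direction lie along the diagonal.

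The study chose the lines by a subset of snoRNAs. The 38 snoRNAs it found to vary together in females were high in females of the up lines and low in those of the down lines. That pattern is what the lines were chosen for, on these female libraries in part, so the female values are a description and not independent evidence. A snoRNA score was taken for each library as the mean log2 CPM of the 38, centred on the 96 lines of the sex. In females, line scores were 1.28, 1.75 and 1.83 in lines 177, 208 and 367, against -2.37, -1.14 and -2.20 in lines 555, 705 and 730. The sides did not overlap, and the difference was 3.53 (4.76 in replicate 1 and 2.29 in replicate 2). Among 96 lines the up lines ranked 26, 5 and 3 from the top and the down lines 92, 74 and 91.

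Female flow cells moved with this score in the other lines too. The 42 other lines whose female replicates both ran on A and B had a mean score of 1.16 ± 0.568 (SD), and the 46 other lines with neither replicate there had -1.05 ± 0.925 (SD), a difference of 2.22. Within the lines on A and B, the up lines ranked 26, 5 and 3 of 45, and within the lines on neither, the down lines ranked 45, 27 and 44 of 49. Lines 177 and 705 thus stood near the middle of their own sets.

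Males gave no such separation. Line scores were -0.0227, 0.387 and -0.118 in lines 177, 208 and 367, against 0.0176, -0.259 and -0.528 in lines 555, 705 and 730. The sides overlapped and differed by 0.339. The sign depended on the replicate: up lines minus down lines was 0.974 in replicate 1 and -0.297 in replicate 2. Replicate 1 exceeded replicate 2 by 2.26 on average over the males of the 6 lines. Side and lane cannot be told apart in males. Other lines in lanes 5, 6, 7 and 8 had mean male scores of 0.00973, -0.102, 0.0649 and 0.0625.

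**Figure D2:**
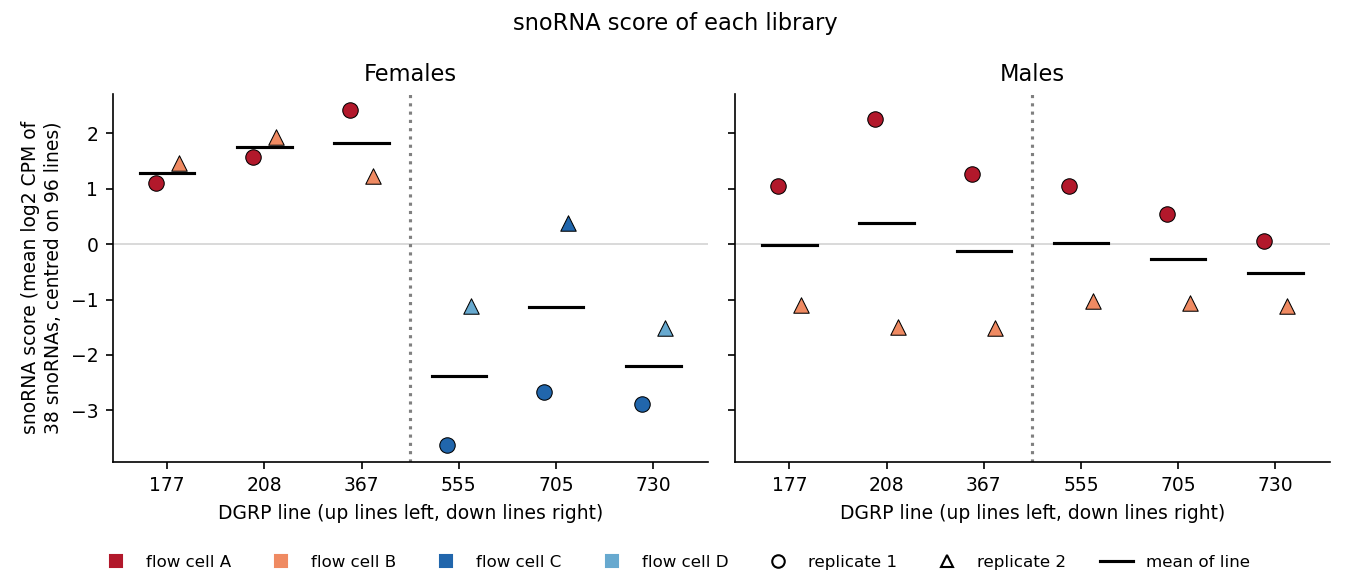
SnoRNA score (mean log2 CPM of the 38 snoRNAs, centred on the 96 lines of a sex) of each of the 24 libraries, by line, females and males apart, with symbols and colours for replicate and flow cell. Female scores of the up lines lie between 1.10 and 2.42 and those of the down lines between -3.63 and 0.39, while male scores divide by replicate.

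All 38 had a positive log2 fold change in females, with a median of 2.89 and a range of 0.835 to 5.14, and 13 passed the test. The median was 4.75 in replicate 1, with 28 called, and 2.24 in replicate 2, where edgeR called none and 31 had unadjusted p under 0.05. Over all 14127 gene models the median was -0.000709, and 0.319% were called higher. When the spread was taken from all 96 lines, the median of the 38 stayed at 2.89 and edgeR called none, with 31 at unadjusted p under 0.05. With the set of flow cells as a covariate as well, the median was 0.849, 37 were still positive in the female fit and none was called by edgeR, with 3 at unadjusted p under 0.05. In males 37 of the 38 could be tested, and 32 were positive, with a median of 0.643 and a range of -0.548 to 2.14, beside a median of -0.00318 over all gene models. None of the 37 was called in males, and 9 were higher at unadjusted p under 0.05, beside 2.32% of all gene models. The male median was 1.03 in replicate 1 and -0.289 in replicate 2.

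**Figure D3:**
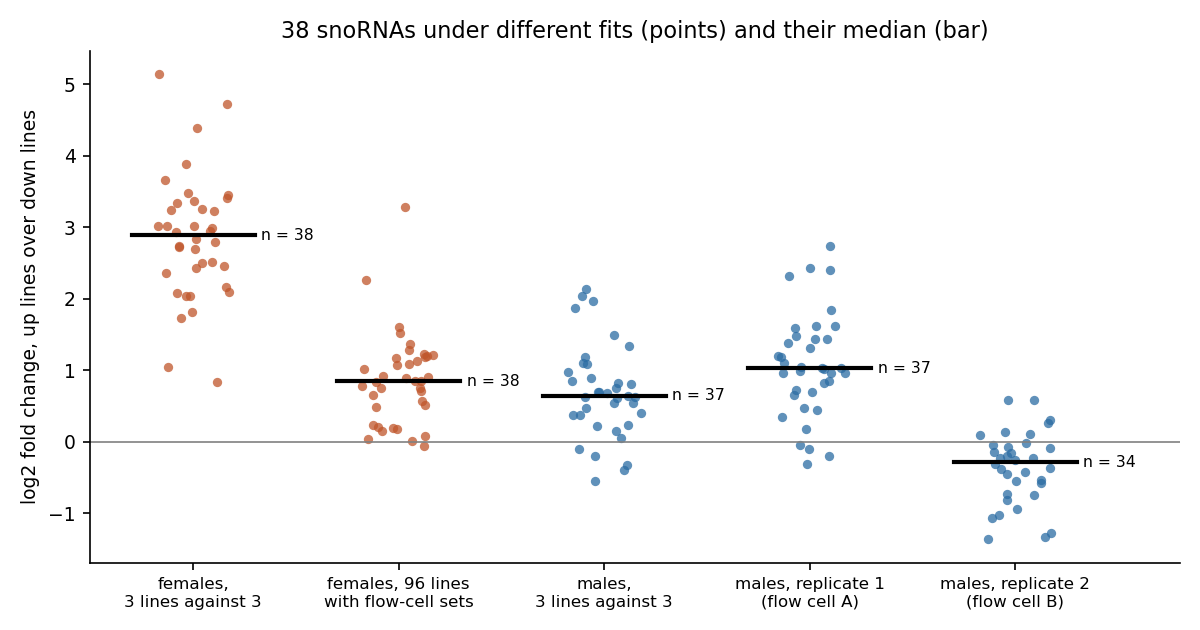
Log2 fold change, up lines over down lines, of each of the 38 snoRNAs (points) with their median (bar) in 2 female fits and 3 male ones. The female median is 2.89 in the fit of 6 lines and 0.849 with 96 lines and the flow cell covariate, and the male median is 0.643, 1.03 in replicate 1 and -0.289 in replicate 2.

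Of the 38, the most abundant in females were snoRNA:Psi18S-1820, snoRNA:Psi28S-1175b, snoRNA:Psi18S-1854c, snoRNA:Psi18S-1086 and snoRNA:Or-CD2. The names of the first 4 give the ribosomal RNA position that each H/ACA snoRNA guides. SnoRNA:Psi18S-1820 lies on chromosome 2R at 20063751 to 20063890 (release 5, plus strand), in an intron of Nop60B, which encodes the pseudouridine synthase itself. Its female levels were 356, 425 and 598 CPM in lines 177, 208 and 367, against 31.8, 77.6 and 25.7 CPM in lines 555, 705 and 730. It was higher in females of the up lines, with a log2 fold change of 3.37 (SE 0.53, adjusted p = 0.0384). For snoRNA:Psi18S-1820, females, the call was lost without line 177, 208, 367, 555 or 730 and without replicate 1, and with 96 lines the value was 3.37 without the flow cell covariate (adjusted p = 0.306) and 1.17 with it (adjusted p = 0.832). In males the levels were 66.1, 70.2 and 42.6 CPM in the up lines against 70.7, 28.7 and 23.4 CPM in the down lines, and they overlapped.

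SnoRNA:Psi18S-1086, on 3L at 833062 to 833209 (minus strand) in the splicing factor gene Sf3b3, was also higher in females of the up lines. Levels were 548, 587 and 576 CPM in up lines, against 54.2, 119 and 41.8 CPM in down lines, a log2 fold change of 3.01 (SE 0.45, adjusted p = 0.0336). For snoRNA:Psi18S-1086, females, leaving out the same lines or replicate 1 lost the call, and with 96 lines the value was 3.01 without the flow cell covariate (adjusted p = 0.324) and 0.854 with it (adjusted p = 0.893). Its male levels were 54.8, 75.2 and 39.6 CPM in up lines, against 46.0, 38.1 and 26.7 CPM in down lines. These overlapped. SnoRNA:Or-CD2, on 2R at 4984535 to 4984674 (plus strand) in the non-coding host Uhg4, had 443, 578 and 526 CPM in females of up lines, against 24.9, 82.9 and 16.2 CPM in females of down lines. It did not pass in females (log2 fold change 3.66, SE 0.71, adjusted p = 0.0702). In males it had 38.5, 114 and 32.5 CPM in up lines, against 24, 10.8 and 12.6 CPM in down lines, with no overlap, and it did not pass either (log2 fold change 2.04, SE 0.67, adjusted p = 0.902). DESeq2 passed it in both sexes, and in replicate 2 alone the male value was -0.0878.

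The other pair did not separate the lines. SnoRNA:Psi28S-1175b (2R, 18494737 to 18494877, plus strand, in RpS16) had 244, 278 and 816 CPM in females of the up lines and 72.4, 270 and 63.5 CPM in those of the down lines. SnoRNA:Psi18S-1854c (X, 17039243 to 17039382, minus strand, in RpS5a) was near zero in line 177 in both sexes, at 3.54 CPM in females and 0.114 CPM in males. The other 5 lines had 56.7 to 811 CPM of it in females and 41.4 to 84.1 CPM in males. SnoRNA:Psi18S-1854b was the counterpart in line 705, at 0.323 CPM in females and 0.154 CPM in males, so in each case 1 line of the 6 stood apart in both sexes. In the whole panel line 705 ranked 92 of 96 in females and 90 of 96 in males for snoRNA:Psi18S-1854b.

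Other small RNAs of the nucleus had female differences of similar size. Of the 220 other snoRNAs and scaRNAs, 128 could be tested, with a median log2 fold change of 2.19. Of these 27 were called, all higher, beside 0.319% of all gene models called higher. SnoRNAs of the H/ACA class by name had a median of 2.51 (106 tested of 111, 28 called), and scaRNAs 2.83 (10 tested of 15, 5 called). SnRNAs had a median of 1.96 (20 tested of 31, 2 called). Names that begin with Psi or hold aca were taken as H/ACA, and names that begin with Me as C/D. By this rule snoRNA:Or-CD2, at 3.66 in females, fell among the other names and not in the C/D class. C/D snoRNAs by name had a lower median of 0.425 (20 tested of 73) and none was called by edgeR. Of them 5 were higher at unadjusted p under 0.05, beside 3.28% of all gene models. Their median was 0.257 up to 100 bases (17 tested) and 2.66 over 100 bases (3 tested). SnoRNAs of other names had a median of 1.94 up to 100 bases (7 tested) and 1.94 over 100 bases (23 tested). With 96 lines and the flow cell covariate the medians were 0.811 for the other snoRNAs and scaRNAs, 0.874 for H/ACA snoRNAs, 1.05 for scaRNAs and 1.16 for snRNAs. They also differed by replicate, at 4.58 in replicate 1 and 1.85 in replicate 2 for H/ACA snoRNAs, 5.58 and 1.89 for scaRNAs and 4.8 and 1.45 for snRNAs. Most C/D snoRNAs are short, and length moved with the difference. The median was 0.435 for snoRNAs of up to 100 bases (24 tested of 99), 2.69 for those over 100 and up to 140 bases (74 tested of 86) and 2.43 for longer ones (68 tested of 73). The part of length in these values was not tested. SnoRNAs with near-identical copies lose reads that align to more than 1 place, which makes the level of any 1 copy uncertain.

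In males the classes had medians of 0.707 for H/ACA snoRNAs (94 tested), 1.15 for scaRNAs (9 tested) and 1.74 for snRNAs (12 tested). No member was called by edgeR, and 30, 6 and 7 were higher at unadjusted p under 0.05, beside 2.32% of all gene models. In replicate 1 alone the medians were 1.18, 1.45 and 2.22, and in replicate 2 alone they were -0.309, -0.226 and 0.0303. SnRNA:U4atac is an RNA of the minor spliceosome. Its male levels were 7.32, 20.9 and 9.15 CPM in up lines, against 2.73, 2.72 and 1.61 CPM in down lines (log2 fold change 2.47, SE 0.52, adjusted p = 0.902). In females it had 24.6, 29.9 and 39.8 CPM in up lines, against 1.86, 3.36 and 1.01 CPM in down lines (log2 fold change 3.94, SE 0.52, adjusted p = 0.0253). It was named after its values were seen. For snRNA:U4atac, females, the call was lost without line 177, 208, 367 or 555 and without replicate 1 (3.05), and with 96 lines the value was 3.95 without the flow cell covariate (adjusted p = 0.317) and 1.61 with it (adjusted p = 0.839). Of 141 snoRNAs and snRNAs tested in both sexes, 51 had unadjusted p under 0.05 in both. All 51 were higher in the up lines, 44 snoRNAs and 7 snRNAs. Over all gene models 0.646% were higher and 0.536% lower in both sexes at that level. The female direction of the snoRNAs was in part what the lines were chosen for, so it is not independent evidence.

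The smallest p in females belonged to snoRNA:Psi28S-2442b. Its levels were 406, 390 and 391 CPM in up lines, against 37.7, 51.8 and 32.3 CPM in down lines (log2 fold change 3.30, SE 0.20, adjusted p = 0.00449). The call for snoRNA:Psi28S-2442b, females, held without any single line, at adjusted p of 0.000553 to 0.0485. It was lost with replicate 1 left out (2.54, adjusted p = 0.0944). In limma it passed with no replicate block (adjusted p = 0.0255) and not with the block (3.38, adjusted p = 0.0606). With 96 lines it was lost without the flow cell covariate (3.30, adjusted p = 0.273) and with it (1.27, adjusted p = 0.712). In males they were 85.7, 131 and 53.6 CPM in up lines, against 48.9, 35.4 and 32 CPM in down lines, without overlap (log2 fold change 1.29, SE 0.42, adjusted p = 0.902). With replicate 1 left out, the male value was -0.17.

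Host genes of the snoRNAs had differences with a median near zero. Over 59 host genes with tested snoRNAs in females, the median log2 fold change of the hosts was 0.0371 (range -0.89 to 1.42) and that of their snoRNAs 2.52. No host was called by edgeR and 5 had unadjusted p under 0.05, beside 8.41% of all gene models. In males the 47 hosts had a median of -0.0972 (range -0.53 to 1.4) and their snoRNAs 0.7. There edgeR called no host, and 2 had unadjusted p under 0.05, beside 4.4% of all gene models. Among the hosts, Uhg4, a non-coding RNA whose introns hold snoRNAs, had 36.6, 36.6 and 56.1 CPM in females of up lines, against 36.3, 61.8 and 31.3 CPM in females of down lines. RpS5a, a small-subunit ribosomal protein gene, was at 813, 711 and 780 CPM in females of up lines, against 622, 638 and 569 CPM in those of down lines. The sides did not overlap for RpS5a, yet the difference was only 0.34 (SE 0.08, adjusted p = 0.337). CycE, which drives entry into DNA replication, had 215, 218 and 181 CPM in females of up lines, against 211, 118 and 210 CPM in those of down lines. Its male levels did not overlap, at 10.6, 12.9 and 9.80 CPM in up lines against 8.15, 8.01 and 8.24 CPM in down lines (log2 fold change 0.50, SE 0.12, adjusted p = 0.902).

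Other small RNAs behaved unequally. RNaseP:RNA, the RNA of the enzyme that trims tRNA precursors, had 2400, 2420 and 2000 CPM in females of up lines, against 1050, 1450 and 917 CPM in females of down lines (log2 fold change 1.01, SE 0.21, adjusted p = 0.0871). The related RNaseMRP:RNA had a female difference of 0.15 (SE 0.33). Both were named after their values were seen.

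CG18180 was the one protein-coding gene that passed in females and was higher in the up lines, and it separated the lines in males as well. It is a predicted serine protease. Female levels were 593, 637 and 522 CPM in lines 177, 208 and 367, against 88.4, 34.2 and 87.0 CPM in lines 555, 705 and 730. The log2 fold change was 3.06 (SE 0.46, adjusted p = 0.0293). Male levels were 406, 276 and 605 CPM in up lines, against 134, 54.0 and 44.7 CPM in down lines, so the sides did not overlap in males, with a log2 fold change of 2.51 (SE 0.59) that did not pass in edgeR (adjusted p = 0.902). DESeq2 and limma passed it in both sexes. In the other 90 lines it ranged from 22.4 to 792 CPM in females and 29.0 to 885 CPM in males, with medians of 172 and 181 CPM, so that each side lay inside the spread of the panel. With all 96 lines the female value was 3.08 (adjusted p = 0.273). With the flow cell covariate as well, the values were 2.58 in females and 2.35 in males, neither of them called. In males that covariate was the flow cell and lane of replicate 1. The female call was lost without line 177, 208, 367, 555 or 730 in turn, at values of 2.99 to 3.27 and adjusted p of 0.0792 to 0.162. For CG18180, females, it was also lost with replicate 1 left out (3.06, adjusted p = 0.163).

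Cyp4p1, a cytochrome P450, was the counterpart on the lower side. Its female levels were 21.5, 9.23 and 8.51 CPM in lines 177, 208 and 367, against 55.7, 86.4 and 87.1 CPM in lines 555, 705 and 730 (log2 fold change -2.54, SE 0.47, adjusted p = 0.065). In males they were 39.9, 16.5 and 19.4 CPM in up lines, against 106, 151 and 174 CPM in down lines (log2 fold change -2.46, SE 0.44, adjusted p = 0.851). Thus no library sum of the up lines reached the lowest down line in either sex. Neither value passed in edgeR, and both passed in limma and in DESeq2. The other 90 lines had medians of 66.3 CPM in females and 96.8 CPM in males.

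**Figure D4:**
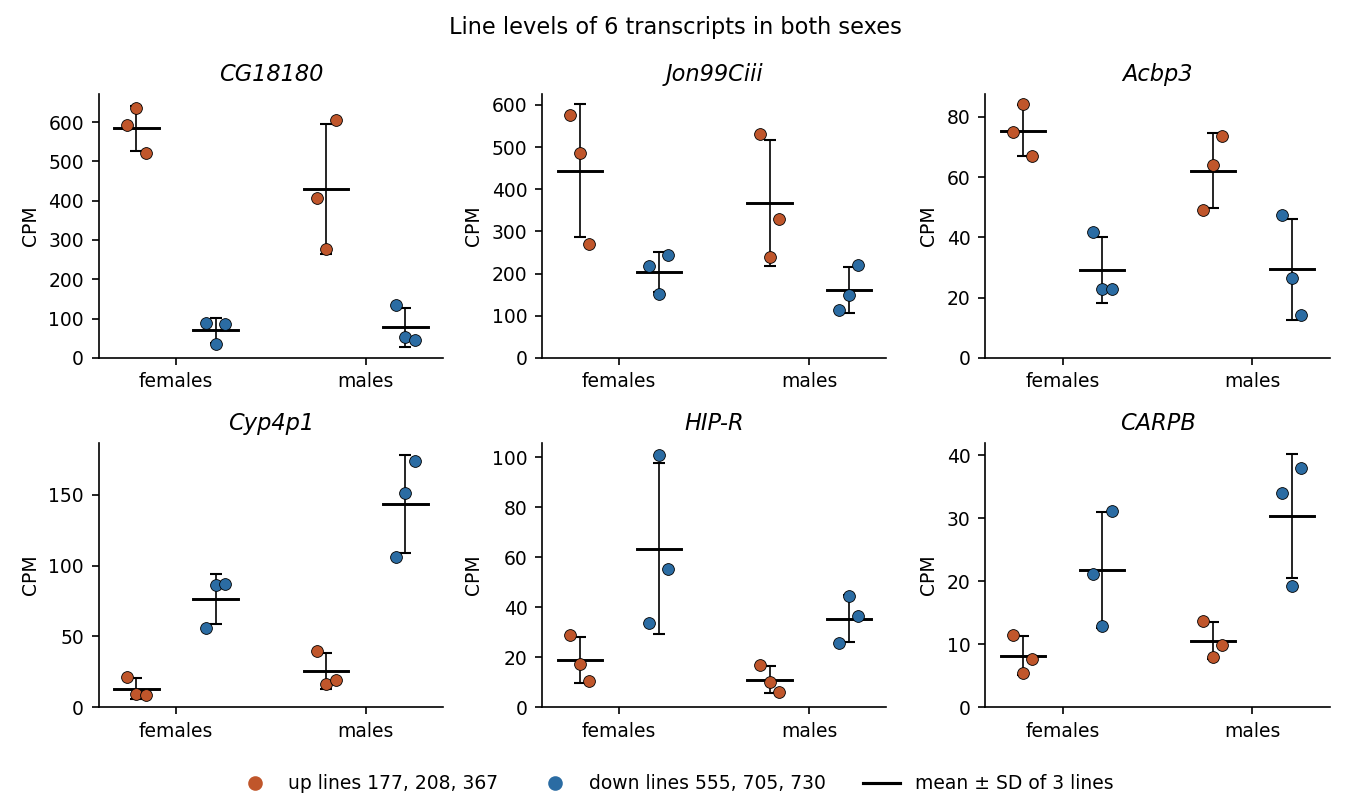
Level in CPM of 6 transcripts in each line (points), with the mean and SD of 3 lines, up lines left of down lines, in females and males. CG18180, Jon99Ciii and Acbp3 lie higher in the up lines and Cyp4p1, HIP-R and CARPB lower, and the up and down lines do not overlap in either sex.

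Further transcripts were picked after their values were seen, as annotated genes other than snoRNAs and snRNAs at unadjusted p under 0.05 in both sexes, same sign, and 50 counts or more per library on the higher side on average. There were 20 such genes higher in the up lines and 46 lower, and the 10 largest in each direction had the same sign in both replicates of both sexes. These genes were picked on the sums of the same replicates, so their shared sign is not independent evidence. Apart from CG18180 in females, none of them passed in edgeR, so their values are given without a claim of change. CG7567 had 4.46, 10.5 and 6.28 CPM in females of up lines, against 1.81, 1.49 and 1.87 CPM in females of down lines. In males it had 7.21, 6.13 and 10.7 CPM in up lines, against 1.29, 2.31 and 2.71 CPM in down lines. Acbp3, an acyl-CoA binding protein, had 75.0, 84.2 and 67.1 CPM in females of up lines, against 41.7, 23 and 22.9 CPM in females of down lines. The male levels of Acbp3 were 49.0, 63.9 and 73.7 CPM in up lines, against 47.5, 26.4 and 14.3 CPM in down lines. Both genes separated the sides in each sex, Acbp3 in males by a narrow margin. CG14499 was higher in all 3 up lines, at 48.0, 15.3 and 3.62 CPM in females against 0, 0.0647 and 0.303 CPM in females of down lines. Its male levels were 24, 4.23 and 7.90 CPM in up lines, against 0.0536, 0.308 and 0.0502 CPM in down lines.

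On the lower side, HIP-R, a co-chaperone related to the Hsc70-interacting protein, had 28.7, 17.2 and 10.5 CPM in females of up lines, against 33.8, 101 and 55.3 CPM in females of down lines. Its male levels were 16.8, 10.1 and 5.96 CPM in up lines, against 25.6, 44.3 and 36.4 CPM in down lines. CARPB, a carbonic anhydrase-related protein, had 11.5, 5.36 and 7.61 CPM in females of up lines, against 21.2, 12.9 and 31.2 CPM in females of down lines. The sides of CARPB did not overlap in males either (13.7, 7.93 and 9.93 CPM in up lines, against 34.0, 19.2 and 37.9 CPM in down lines). DESeq2 passed both genes in both sexes. CG13658 had 2.01, 2.28 and 1.76 CPM in females of up lines, against 16.1, 14.0 and 2.43 CPM in females of down lines, so line 730 lay close to the up lines.

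Several of the largest differences rested on 1 line. Desat2, a fatty acyl desaturase of cuticular hydrocarbon synthesis, stood at 290 CPM in line 367 females and 59.8 CPM in line 367 males. In the other up lines, 177 and 208, it had at most 5.20 CPM in females and 0.380 CPM in males, and in the down lines at most 0.906 CPM in females and 0.411 CPM in males. DIP-alpha, a neuronal cell surface protein of the immunoglobulin family, stood at 322 CPM in line 730 females and 302 CPM in line 730 males, against 8.36 to 17.1 CPM in females and 6.52 to 8.51 CPM in males of the other 5 lines. CG1113 stood at 68.7 CPM in females and 146 CPM in males of line 555, and at most 1.26 CPM in females and 2.07 CPM in males elsewhere among the 6. CG4927 was high in line 208 alone (56.2 CPM in females, 51.5 CPM in males) and CG15484 in line 705 alone (33.5 CPM in females, 60.9 CPM in males). In each of these genes 1 line, and not the side, set the difference. Fits in which the spread came from all 96 lines called 15 gene models in females (0.106%), 48 in males (0.256%) and 12 in both (0.0882%), and with the flow cell covariate 16 (0.113%), 29 (0.155%) and 11 (0.0808%). In males the covariate was the flow cell and lane of replicate 1. DIP-alpha, CG1113 and CG15484 were among those called in both sexes with and without the covariate, and no snoRNA or snRNA was.

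Digestive enzymes were more often higher than lower in the up lines. Of 42 midgut proteases and carbohydrases tested, 9 were higher in the up lines in females and none lower at unadjusted p under 0.05, with a median of 0.413, beside 3.28% higher and 5.12% lower over all gene models. In males 9 were higher and 2 lower, with a median of 0.222, beside the 2.32% higher and 2.08% lower over all gene models. None was called by edgeR in either sex. Jon99Ciii, a Jonah serine protease, had 577, 486 and 269 CPM in females of up lines, against 217, 151 and 244 CPM in females of down lines, and 531, 240 and 329 CPM in males of up lines, against 113, 148 and 220 CPM in males of down lines. It separated the sides in each sex. Jon65Ai, Jon25Bii, the trypsin deltaTry and the lysozyme LysS also had unadjusted p under 0.05 in both sexes. Of these, deltaTry was high in lines 177 and 208 alone (41.8 and 33.5 CPM in females). LysS was high mainly in line 177 (20.5 CPM in females, 8.0 CPM in males). The sides overlapped for Jon25Bii in females only and for Jon65Ai in males only. Without line 208 the female value of Jon25Bii fell from 1.65 to 0.694. Without line 177 the male value of Jon65Ai fell from 1.44 to 0.853. Jon25Biii, among the most abundant of the family, had 946, 1020 and 359 CPM in females of up lines, against 109, 201 and 326 CPM in females of down lines. Its male levels were 647, 309 and 219 CPM in up lines, against 36.1, 182 and 182 CPM in down lines. The maltase Mal-B1 had the opposite direction in males, at 20.8, 41.5 and 20.9 CPM in up lines against 31.7, 398 and 303 CPM in down lines. Among 16 genes with a Jonah symbol, a set gathered after the data were seen, the medians were 0.814 in females and 0.794 in males. The summed level of the list was 8330 to 14500 CPM in females of up lines and 5830 to 9270 CPM in females of down lines, and 7620 to 17000 CPM in males of up lines and 8730 to 12100 CPM in males of down lines.

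Among genes of detoxification, a few were lower in the up lines. Of 48 cytochrome P450 genes tested in each sex, 6 were lower in females and 4 in males at unadjusted p under 0.05, none was higher at that level and none was called by edgeR, beside 5.12% lower in females and 2.08% lower in males over all gene models. The medians were -0.239 in females and 0.0367 in males. Cyp4p1, Cyp4e3 and Cyp6d2 were among those lower in both sexes. Cyp6d2 had 13.9, 8.59 and 6.92 CPM in females of up lines, against 21.4, 22.3 and 23.3 CPM in females of down lines. The DDT resistance gene Cyp6g1, the most abundant of the family, overlapped, at 2310, 2090 and 1620 CPM in females of up lines against 1470, 1890 and 2320 CPM in females of down lines. Among 34 glutathione S-transferases, medians were -0.175 in females and -0.168 in males. At unadjusted p under 0.05, 1 was higher and 1 lower in females and 1 was lower in males, and edgeR called none. Over all gene models 3.28% were higher and 5.12% lower in females at that level, and 2.08% lower in males. GstD1 had 216 to 724 CPM in the up lines over both sexes, against 350 to 420 CPM in lines 555 and 705, and was nearly absent from line 730 (1.42 CPM in females, 1.41 CPM in males).

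Genes of ethanol metabolism and response, on a list of 20 tested, had medians of -0.00546 in females and -0.0335 in males, and none was called by edgeR. At unadjusted p under 0.05, 1 was higher and 2 lower in females, and 1 was higher and 1 lower in males, beside 3.28% and 5.12% of all gene models in females and 2.32% and 2.08% in males. The neuropeptide F receptor gene NPFR, which the fly uses in feeding and ethanol behaviour, had 2.66, 2.02 and 2.08 CPM in females of up lines, against 9.34, 5.17 and 2.88 CPM in females of down lines. In males it had 5.73, 3.61 and 6.47 CPM in up lines, against 32.7, 15.6 and 8.04 CPM in down lines. Sides did not overlap in either sex (log2 fold change -1.36, SE 0.50, adjusted p = 0.441 in females, and -1.78, SE 0.63, adjusted p = 0.902 in males). No other member of the list separated the sides with unadjusted p under 0.05 in both sexes.

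The study followed the 6 lines in sleep and activity tests, and lists for these traits held no called gene. Of 15 clock genes, 2 were lower in females at unadjusted p under 0.05, beside 5.12% of all gene models, and none in males, with medians of -0.145 in females and -0.148 in males. The core clock gene tim had 107, 76.3 and 80.7 CPM in females of up lines, against 140, 156 and 114 CPM in females of down lines. Male levels of tim overlapped. Of 27 sleep genes none in females had unadjusted p under 0.05, beside 8.41% of all gene models. In males 1 did, the diuretic hormone gene Dh44, beside 4.4% of all gene models. Dh44 had 17.8, 16.7 and 16.1 CPM in males of up lines, against 13, 12.2 and 12.6 CPM in males of down lines. Its female levels overlapped.

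Antimicrobial peptide genes were unsteady between replicates. Of 17 tested in females, 2 were higher and 7 lower at unadjusted p under 0.05, beside 3.28% and 5.12% of all gene models. The median was -0.928, which was -2.67 in replicate 1 and 0.644 in replicate 2. None of the 17 had unadjusted p under 0.05 in males, where the median was 0.127. Heat shock and Turandot genes had medians of 0.348 in females (13 tested) and 0.364 in males (14 tested). Proteins of the snoRNA particle and nucleolus had medians of 0.05 in females and -0.252 in males (17 tested in each), and the 22 host genes on the study's list 0.035 and -0.0911. None of these 4 lists held a called gene in edgeR. At unadjusted p under 0.05, 1 heat shock or Turandot gene and 1 host gene were higher in females, and 2 of the particle proteins were lower in males. Over all gene models 3.28% were higher in females and 2.08% lower in males at that level. The 78 cytosolic ribosomal protein genes tested in females, chosen by symbol after the data were seen, had a median of 0.144, with 11 at unadjusted p under 0.05, all higher in the up lines, beside 3.28% of all gene models. With 96 lines and the flow cell covariate the median was 0.0445, with 1 at that level. The 82 tested in males had a median of -0.174, with none.

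The 18 transcripts lower in females of the up lines were male ones. Each had more than 10 times the level in males of the 6 lines that it had in females. Sfp60F, a seminal fluid protein gene, had 0.0544, 0.0530 and 0.0532 CPM in females of up lines, a single count each, against 6.95, 4.07 and 12.5 CPM in females of down lines. In males it had 1000, 1050 and 1400 CPM in up lines, against 1210, 681 and 735 CPM in down lines. Acp95EF, an accessory gland gene, and EbpII, of the ejaculatory bulb, showed the same pattern. Leaving out line 177, 208, 367 or 555, or replicate 1, lost the Sfp60F call. The other 15 included Ebp of the ejaculatory bulb, Acp36DE and Mst57Db of the accessory gland, the testis gene Mst84Dc and gskt, a testis kinase.

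Markers of the male tract, summed per female library, separated some down libraries from the rest. The accessory gland and ejaculatory bulb list summed to 0.485 to 1.57 CPM in the 6 female libraries of up lines. In the down lines it summed to 422 and 0.584 CPM for the replicates of line 555, 36.2 and 17.0 CPM for line 705, and 524 and 82.0 CPM for line 730. All 17 of its members tested were lower in females of the up lines at unadjusted p under 0.05, beside 5.12% of all gene models. Of these 5 passed the test, beside 0.127% of all gene models. With such sums in the up lines, members could pass the count filter almost only through down-line libraries. Their direction was thus largely set by the filter. The testis list summed to 103 to 131 CPM in females of up lines and 118 to 569 CPM in females of down lines. Of its 23 tested members 17 were lower at unadjusted p under 0.05, with 3 called, beside the same shares of all gene models. The same limit holds for its members near zero in the up lines. In males, the accessory gland list summed to 13500 to 27300 CPM in up lines and 10800 to 20500 CPM in down lines. The other 180 female libraries of the panel ranged from 0.102 to 594 CPM for the accessory gland list, with a median of 1.88 CPM. The part of male tissue or seminal fluid in these values was not tested.

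**Figure D5:**
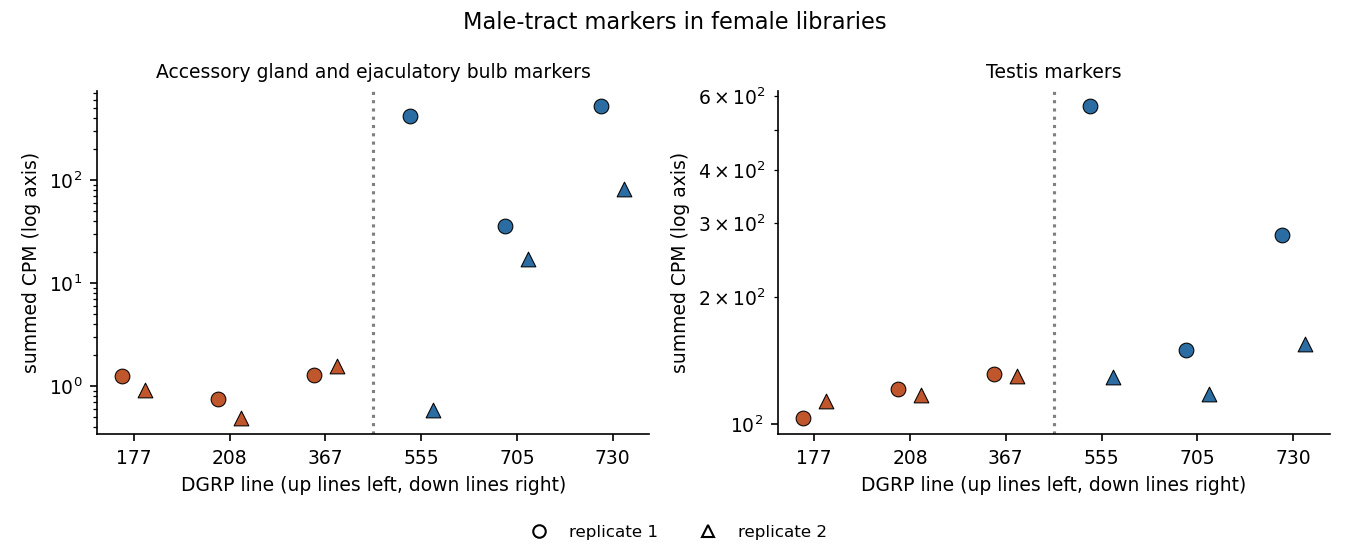
Summed CPM (log axis) of accessory gland and ejaculatory bulb markers (left) and testis markers (right) in each female library by line, replicate 1 as circles and replicate 2 as triangles. The 6 libraries of the up lines lie between 0.485 and 1.57 CPM for the first list, and 5 of the 6 libraries of the down lines lie above them, up to 524 CPM.

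With the 3 female libraries over 50 CPM of the accessory gland list left out, an analysis chosen after seeing the data that leaves 2 down lines, 39 gene models were called and 32 of them were among the 63. Of the 39, 38 were higher in the up lines and 1, CG13658, was lower. These comprised 35 snoRNAs and scaRNAs, 2 snRNAs and none of the male-tract markers.

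No marker of the other tissues was called by edgeR. Of 25 ovary markers tested in females, 4 were higher in the up lines at unadjusted p under 0.05 beside 3.28% of all gene models, and their summed level was 24900 to 33000 CPM in up lines and 18300 to 28700 CPM in down lines. Neuron and eye markers had medians of -0.205 in females and -0.122 in males, and muscle, fat body and gut markers -0.0635 and -0.13. Of the 18 neuron and eye markers 4 were lower in females and none in males at unadjusted p under 0.05, beside 5.12% of all gene models in females. Of the 16 muscle, fat body and gut markers 1 was higher in each sex at that level, beside 3.28% of all gene models in females and 2.32% in males.

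The difference between the sides was set against sex in a separate test, whose value is the female log2 fold change minus the male one. Of 17568 gene models, 71 passed (0.404%), 16 above zero (0.0911%) and 55 below (0.313%). The 16 were all snoRNAs or scaRNAs, 6 of them among the 38, whose female levels are in part what the lines were chosen for, and the 55 had over 10 times higher levels in males than in females. With the 3 female libraries over 50 CPM of the accessory gland list left out, and line 730 left out in both sexes, edgeR called none. Both female libraries of line 705, at 36.2 and 17 CPM of that list, stayed in. The count was 0 without line 177, 208 or 367, 104 without line 555, 609 without line 705 and 52 without line 730. It was 21 without replicate 1 and 76 without replicate 2.

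In males, the 3 transcripts with the smallest p on the higher side were non-coding (lncRNA:CR43097, asRNA:CR44351 and lncRNA:CR44597), and those on the lower side were lncRNA:CR44335, CG16762 and Cyp4p1. LncRNA:CR43097 had 5.16, 6.08 and 3.02 CPM in males of up lines, against 0.322, 0.462 and 0.352 CPM in males of down lines, and lncRNA:CR44335 had 0.0568, 0 and 0.129 CPM in up lines, against 1.98, 2.41 and 2.91 CPM in down lines. Neither passed the test, at adjusted p = 0.748 and 0.851, and neither reached the count minimum in females. CG16762 was lower in the up lines in both sexes without passing, at 16.7, 10.4 and 14.9 CPM in males of up lines against 43.5, 39.6 and 30.8 CPM in males of down lines.

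Over all 13612 gene models tested in both sexes, 58.7% had the same sign in females and males (Pearson's r = 0.307 across genes, which share lines and are not independent). Among 141 snoRNAs and snRNAs the share was 85.1%. The female direction of the snoRNAs was in part what the lines were chosen for, so this share is not independent evidence. The male median of H/ACA snoRNAs was 1.18 in replicate 1 and -0.309 in replicate 2. Among the 524 other gene models at unadjusted p under 0.05 in males, 78.6% had the same sign in both sexes. Among the 1004 at that level in females, 53.6% did.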

How the data were processed

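Whole-fly RNA, depleted of ribosomal RNA, was sequenced as directional single-end libraries of 96 DGRP lines. The authors trimmed reads with cutadapt 1.6, removed ribosomal, microbial and repeat sequences with BWA 0.7.10, aligned the rest to BDGP5 with STAR 2.4.0e and counted them per gene with HTSeq, and the counts they deposited are raw, not normalised. Of 40020 gene models (17294 FlyBase genes and 22726 unannotated transcribed regions, NTRs), 162 flagged ribosomal and 35 flagged mitochondrial were left out. Entries that name no gene stayed out of the totals; in the 6 lines reads with no gene made up 2.71%, ambiguous reads 1.38% and reads in more than 1 place 26.8%.

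Replicates of a line were summed, gene models averaging 5 or more counts in the 12 libraries of a sex were kept, and up lines were tested against down lines with edgeR 4.0.16 (TMM, quasi-likelihood F-test, R 4.3.3), Benjamini-Hochberg adjusted over all gene models, threshold 0.05. The interaction with sex was fitted on 12 sums with line as a block. CPM use TMM factors over the 96 lines of a sex. DESeq2 1.42.0, limma 3.58.1, other filters, fits on 96 lines with and without flow cell, and fits without single lines, replicates or libraries were alternatives. The flow cell covariate was the set of flow cells in females and the flow cell and lane of replicate 1 in males. On simulated data the female fit found 88 of 100 genes changed by log2 2 and 97 of 100 changed by log2 4. The male fit found 84 and 99, and the interaction 81 and 97. False calls numbered 10, 14 and 11 in that order. These shares hold for the simulated counts only and do not give the power in the measured libraries. There the male edgeR fit called none, with CG18180 at 2.51 (adjusted p = 0.902) and Cyp4p1 at -2.46 (adjusted p = 0.851). Depth was 6500376 to 12309326 counts per library; the precision of low levels follows from it.

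Replicate numbers paired male libraries: replicate 1 ran on one flow cell and replicate 2 on another, per the labels, and deviations of same-numbered libraries correlated over 0.1 in 15 of 15 pairs of lines (0.176 to 0.633).

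Named genes were, in each sex and in the interaction, the 3 a direction with the smallest p, members of the lists that were called or most abundant, the 5 most abundant of the 38 snoRNAs, Uhg4, CycE and host genes. The rule's first part, genes called in both sexes, gave none, so a looser level was used after the values were seen. Lists covered the 38 snoRNAs, host genes, snoRNA particle proteins, ethanol, clock, sleep, detoxification, immune, heat shock and gut genes, and tissue markers. Members, lines and lists were chosen with earlier results of these data known. Loci come from the study's annotation table (release 5), hosts from a release 6 annotation. Wolbachia status was not used here.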

Additional observations from a re-analysis of the deposited data

Results flagged for a closer look

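In all, 13 transcripts were singled out because the difference between up and down lines itself differed between the sexes, by edgeR's test of the interaction. The values are the female minus the male log2 fold change of up lines over down lines. For the male transcripts, whose female levels were at most 0.272 CPM in every up line, the size depends on the prior count of the fit.

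Of these, 8 were male transcripts below zero: Anp, an antibacterial peptide of the ejaculatory duct, at -7.68 (adjusted p = 0.00641), Sfp60F at -7.43 (adjusted p = 0.0185), gskt at -3.76 (adjusted p = 0.0185), Acp95EF at -8.80 (adjusted p = 0.0199), EbpII at -8.54 (adjusted p = 0.0227), Mst84Dc at -8.78 (adjusted p = 0.0278), Acp36DE at -9.09 (adjusted p = 0.0396) and Ebp at -7.42 (adjusted p = 0.0418).

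Another 5 were snoRNAs above zero: snoRNA:Psi18S-1854b at 2.57 (adjusted p = 0.0185), snoRNA:Psi28S-2648 at 2.17 (adjusted p = 0.0199), snoRNA:Psi18S-1377c at 2.99 (adjusted p = 0.0207), snoRNA:Psi28S-2626 at 2.91 (adjusted p = 0.0371) and snoRNA:Psi18S-1086 at 2.47 (adjusted p = 0.0396). In females, flow cell and side cannot be told apart for any of these 5. The lines were chosen for female snoRNA differences, in part on these libraries, so these p-values are not independent evidence.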

How the results depend on the processing

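The female count of 63 was 414 with DESeq2, 263 with no filter, 26 at a mean of at least 50 counts, 15 with all 96 lines in the fit, 16 with the flow cell covariate as well and 39 without the libraries that held male transcripts; without single lines it ran from 2 to 344 and without a replicate from 1 to 125. In limma the replicate block gave 8 female calls, against 45 with no block. Replicate numbers paired the female libraries less clearly than the male ones (correlations of -0.24 to 0.457, median 0.122, 8 of 15 over 0.1). Female replicate 1 ran on flow cell A in all up lines and on C in all down lines. The male count of 0 was 57 with DESeq2, 2 in limma with the block and without, 48 with 96 lines and 29 with the covariate, and stayed 0 without any line or replicate. The count in both sexes was 21, 2, 2, 12 and 11 in the same order. The covariate was the set of flow cells in females and the flow cell and lane of replicate 1 in males. For the sex by side interaction the count of 71 was 1279 with no filter, 3 in limma without the replicate block and 4 with it, 0 without the libraries with male transcripts, 0 to 609 without single lines and 21 to 76 without a replicate.

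Over named transcripts, 1759 of 2062 alternative values kept direction and side of the threshold, 78 newly passed and 188 no longer passed. Another 37 turned sign, none of them in a result that passed. Values to which DESeq2 gave no adjusted p, such as those of Desat2 and DIP-alpha, were counted as kept if their direction was. Without single lines or replicates the male values that turned ran from -0.166 to 1.71 for snoRNA:Psi28S-2442b, -0.221 to 1.52 for snoRNA:Psi28S-2626, -0.26 to 0.966 for snoRNA:Psi18S-1086, -0.368 to 1.25 for snoRNA:Psi18S-1820, -0.0878 to 2.47 for snoRNA:Or-CD2 and -0.381 to 1.81 for snoRNA:Psi18S-1854b, males, all turning without replicate 1. They ran from -1.27 to 0.0276 for snoRNA:Psi18S-1854c, males (without line 177), -0.418 to 0.169 for snoRNA:Psi28S-1175b (without line 555), -5.72 to 0.15 for CG1113, males (without line 555), -4.72 to 0.15 for CG15484, males (without line 705), -0.268 to 0.0347 for RpS5a, males, -0.113 to 0.0404 for Mst84Dc, males, -0.474 to 0.25 for RNaseMRP:RNA, males, and -0.204 to 0.124 for Uhg4, males. In females they ran from -0.0388 to 0.329 for CycE, females, -0.0673 to 0.275 for Cyp6g1, females, -0.0718 to 0.155 for Dh44, females, -0.136 to 0.375 for RNaseMRP:RNA, females, and -0.224 to 0.344 for Uhg4, females. The sign also turned for snoRNA:Psi18S-1820, males, in limma with no block (-0.0313), for snoRNA:Psi28S-1175b, males, with the flow cell covariate (0.164), for RNaseMRP:RNA, females, without the libraries with male transcripts (-0.00753), and for Uhg4, females, at a mean of at least 50 counts (-0.0373), with the covariate (-0.0947) and without those libraries (-0.174). The cause was not tested.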

Other observations

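Transcripts private to 1 of the 6 lines were counted as those at 5 CPM or more whose line stood more than 3 log2 units, at a pseudocount of 0.5 CPM, from the next of the 96 lines in both sexes. Lines 177 and 208 had none. Line 367 had 2 high ones, among them Desat2, and line 730 had 2, among them ase, a neural precursor gene. Line 555 had 3 high ones, among them CG1113, and line 705 had 3, among them CG12715. Line 705 was also the low extreme for 2: CG17752 at 0.259 CPM in females, against 11.1 CPM in the next lowest line, and lncRNA:noe at 26.8 CPM, against 375 CPM. In males of line 705, CG17752 was at 0.257 CPM, against 13.1 CPM in the next lowest line, and lncRNA:noe at 52.3 CPM, against 1140 CPM. The other 90 lines had 0 to 10 high transcripts of this kind, with a median of 1, and 0 to 2 low ones. The measure was set after the data were seen.

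The opsin genes Rh5 and Rh3 had unadjusted p under 0.05 in both sexes without passing the test, and were named after their values were seen. Rh5 had 16.4, 14.5 and 11.3 CPM in females of up lines, against 20.3, 26.7 and 31.2 CPM in females of down lines. In males Rh5 had 33, 33.1 and 25.1 CPM in up lines, against 44.9, 50.2 and 71.6 CPM in down lines. Rh3 also separated the sides in both sexes, with log2 fold changes of -0.66 in females (SE 0.19) and -0.43 in males (SE 0.17). The other opsins of the inner photoreceptors, Rh4 and Rh6, had positive values (0.34 and 0.32 in females, 0.33 and 0.41 in males).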
